A study of Mus musculus with 4 samples.

Results

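The cells described here are the actively dividing leukocytes recovered from MC38 tumours. They were chosen by raw counts: a cell was taken as cycling when its barcode held at least 200 detected genes, at most 10% mitochondrial UMIs (unique molecular identifiers, 1 for each captured RNA molecule), at least 2 UMIs of Top2a and at least 2 UMIs of Mki67. By this rule 61 of 1679 retained cells were cycling, 24 of 805 in the control library and 37 of 874 in the Prdm1 knockout library. MC38 is a mouse colon carcinoma line, here injected under the skin of female C57BL/6 mice aged 12 to 16 weeks. Control recipients were Prdm1 f/f and knockout recipients Prdm1 f/f CD19cre, so the floxed alleles of Prdm1, which encodes the plasma cell transcription factor Blimp-1, were carried by both groups and a Cre active in the B lineage by 1 of them. Tumours of 11 recipients per genotype were pooled on day 18, and viable B220+ and CD138+ cells were sorted after a Percoll gradient and combined in proportions that the labels do not give. Each genotype therefore had 1 gene expression library and 1 matched B cell receptor library, so no difference between genotypes could be tested, and every interval printed is a 95% interval that covers counting error only. The 2 genotypes' files also carry different date stamps, and genotype and library preparation cannot be told apart.

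A dividing cell copies its DNA in S phase, for which it makes histones, nucleotide-synthesising enzymes and the MCM helicase that opens replication origins. It then passes through G2 into mitosis (M), when cyclin B, the kinase Plk1, kinesin motors and the chromosome-separating topoisomerase Top2a are most abundant. In tumours, T and NK lymphocytes divide after activation, and B cells divide in germinal centres or as plasmablasts, the dividing precursors of antibody-secreting plasma cells.

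Top2a and Mki67, which define the cells, and the further markers Plk1, Esco2, Kif14 and Ttk are genes whose RNA rises and falls over the cycle. They do not all peak in the same phase. Genes with peak expression in G2 and M are known to be switched by a promoter element of the sequence TTTGAA or TTTAAA, the cell cycle homology region (CHR), often near a CCAAT box. Promoter sequence was found for 5 of the 6 markers (RefSeq, assembly GRCm38.p6). The 100 bases before a RefSeq transcript start are shown 5′ to 3′ on the strand of the gene, because these elements can be read in them directly. Capitals mark a CHR or a CCAAT box on either strand.
Top2a, chr11:99024190-99024289, minus strand: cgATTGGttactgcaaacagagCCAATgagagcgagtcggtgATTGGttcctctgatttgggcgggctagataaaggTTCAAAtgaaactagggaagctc
Mki67, chr7:135716380-135716479, minus strand: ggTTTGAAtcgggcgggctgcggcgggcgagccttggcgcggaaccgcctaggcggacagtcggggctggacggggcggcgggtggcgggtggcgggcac
Plk1, chr7:122159335-122159434, plus strand: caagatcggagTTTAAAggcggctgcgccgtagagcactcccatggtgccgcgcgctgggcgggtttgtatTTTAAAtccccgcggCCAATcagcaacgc
Kif14, chr1:136467748-136467847, plus strand: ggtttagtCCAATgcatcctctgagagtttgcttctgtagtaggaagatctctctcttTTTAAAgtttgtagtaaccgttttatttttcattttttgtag
Ttk, chr9:83834589-83834688, plus strand: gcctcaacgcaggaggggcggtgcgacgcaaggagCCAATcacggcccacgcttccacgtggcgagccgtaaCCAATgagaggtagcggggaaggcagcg

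The CHR of Top2a lay 23 bases before the start. A TTTAAA lay 42 bases before the RefSeq start used for Kif14. That start is inside the Kif14 gene, whose annotated span begins at chr1:136466301, so this stretch may not be its main promoter. The stretches of Top2a, Mki67 and Ttk also overlap their annotated genes in part. Mki67 held 1 CHR 98 bases before its start, and Plk1 held 2, at 89 and 29 bases. Ttk held CCAAT boxes at 65 and 28 bases and no CHR in this window. Promoters were matched for 47 of 54 listed G2/M genes, Top2a and Mki67 included, and 31 of 43 S phase genes, some with more than 1 start. Among the windows of 250 bases before a start, 55.8% (29 of 52) of the G2/M windows held a CHR on either strand, against 20.6% (7 of 34) of the S phase windows and 25.2% of all 32851 windows. CCAAT on either strand was found in 75% of G2/M, 67.6% of S phase and 33.8% of all windows. The E2F motifs TTTCCCGC and TTTGGCGC, which mark many S phase promoters, were in 3.85% of G2/M, 23.5% of S phase and 1.30% of all windows. These matches describe the letters only.

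Over the 61 cycling cells, Top2a ranged from 2 to 44 UMIs with a median of 9, and Mki67, which encodes the proliferation antigen Ki-67, from 2 to 38 with a median of 6. Both genes chose the cells, so their levels are a description. Plk1 was detected in 39 of the cells at up to 12 UMIs, and Esco2, the acetyltransferase that ties sister chromatids together in S phase, in 44 at up to 9. The kinesin Kif14 was detected in 17 cells and the spindle checkpoint kinase Ttk in 18, at no more than 2 and 3 UMIs, and 3 cells held all 6 transcripts. The rarer markers were thus seen in a minority of cells even though these cells were deep.

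The rule favours cells with many UMIs. Cycling control cells held 17635 to 55667 UMIs with a median of 28886, against a median of 5759 in the other control cells. Cycling knockout cells held 2023 to 37652 UMIs with a median of 17594, against 3947. Median genes detected were 4716 and 4001 in cycling control and knockout cells, and 1910 and 1553 in the others. The knockout library also reached cells of poorer quality, since 5 of its 37 cycling cells held under 5000 UMIs and 5 had over 5% mitochondrial UMIs, while no control cycling cell did either. In addition, 1 further control barcode met the marker rule but not the quality limits, and 1 knockout cycling cell had a barcode that also occurred in the control library. The part of depth in any difference between the libraries was not tested except where matched values are given.

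How sharply the threshold cut the cells differed between the libraries. Cells with 3 or more UMIs of both Top2a and Mki67 had a median of 14269 CPM (UMIs scaled to 1000000 UMIs of the cell) summed over S and G2/M genes in the control (23 cells) and 15532 CPM in the knockout (29 cells). The cells just inside, at the minimum for at least 1 of the markers, were 1 control cell at 1254 CPM and 8 knockout cells with a median of 12434 CPM. Those just outside had medians of 9328 CPM (10 control cells) and 4826 CPM (6 knockout cells), and cells with neither transcript 1781 and 1987 CPM. The 1 control cell just inside, a B lineage cell called control B 1 below, had 18343 UMIs, 2 UMIs of Top2a and 3 of Mki67 but only 8 S phase and 15 G2/M UMIs, a lower CPM than in the median cell with neither marker, so its other genes go against its inclusion.

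By their lineage transcripts most cycling cells were assigned to the natural killer (NK) lineage. Ncr1 or Klrb1c, which encode the NK receptors NKp46 and NK1.1, marked 17 of 24 cycling control cells (70.8%, exact binomial interval 48.9 to 87.4%) and 22 of 37 knockout cells (59.5%, 42.1 to 75.2%) without another lineage mark. These 2 genes do not separate NK cells from type 1 innate lymphoid cells, so the cells called NK here may hold both. Itga1, a tissue residence gene, reached 5 UMIs in control NK 15 and in knockout NK 15, and the split was not tested. Cd3e, a subunit of the T cell receptor complex, marked 3 control cells (12.5%) and 7 knockout cells (18.9%, 7.96 to 35.2%). At least 3 UMIs of Cd79a, the signalling chain of the B cell receptor, marked 3 control cells (12.5%) and 5 knockout cells (13.5%). The remaining 4 cells carried marks of 2 lineages, 1 control and 2 knockout cells of NK and T and 1 knockout cell of T and macrophage. Neither library held a cycling cell that was macrophage or plasmacytoid dendritic by C1qa or Siglech alone, or that lacked every mark. With 38 plasmacytoid dendritic cells in each library, a count of 0 allows a share of up to 7.89%. The NK and T cells came through a gate set on B220 and CD138, so these shares describe the sorted mixture.

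Most cells held several UMIs of their mark. Ncr1 was present in 17 of 17 cycling control NK cells at 6 to 41 UMIs (median 13) and in 21 of 22 knockout NK cells at 0 to 19 (median 6.5). Cd3e ranged from 16 to 37 UMIs in the cycling T cells of the control and from 9 to 29 in those of the knockout. Cd79a ranged from 6 to 17 UMIs and from 5 to 51 in the cycling B cells. The marks were thinner in some knockout NK cells: knockout NK 1 was placed by 1 UMI of Ncr1, knockout NK 11 by 1 of Klrb1c and knockout NK 3 by 1 of each. Cycling NK cells held no UMI of Cd3e, Cd4 or Cd8a, the first being part of the rule, although the other 5 of 8 T cell markers gave 122 UMIs over the control cells and 27 over the knockout cells. The summed T cell markers ran from 0 to 1111 CPM per control cell (median 108) and from 0 to 289 CPM per knockout cell (median 17.0). Cycling B cells held none of the 8. Macrophage markers gave at most 5 UMIs in any of these groups. Among all cells with a Cd3e UMI, 10.1% in the control and 23.2% in the knockout also held an NK mark, so shared marks were not rare in the knockout library.

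Within lineages, 9.88% of control NK cells were cycling (17 of 172, 5.86 to 15.4%) and 7.36% of knockout NK cells (22 of 299, 4.67 to 10.9%). For T cells the shares were 4.76% (3 of 63, 0.993 to 13.3%) and 10.3% (7 of 68, 4.24 to 20.1%). Among B cells 1.07% (3 of 281, 0.221 to 3.09%) and 1.72% (5 of 290, 0.562 to 3.98%) were cycling. The intervals cover the counting of cells within 1 library each, and the genotypes were not compared by them. Among cells with at least 5000 UMIs the shares were 11.7% (17 of 145) and 10.3% (19 of 185) for NK cells, 6.98% (3 of 43) and 22.2% (6 of 27, 8.62 to 42.3%) for T cells, and 3.70% (3 of 81) and 11.4% (5 of 44, 3.79 to 24.6%) for B cells. When every cell was thinned at random to 3000 UMIs and 1 UMI of each marker was required, 4.76% of control and 5.18% of knockout NK cells were cycling. These values differ from those above in depth and in the marker minimum, and their intervals were 2.08 to 9.17% (8 of 168) and 2.79 to 8.69% (13 of 251). T cells were then at 3.51% (2 of 57) and 7.27% (4 of 55), and B cells at 0% (0 of 168) and 1.64% (2 of 122). This thinning left out 4 control and 48 knockout NK cells with fewer UMIs. Over all lineages it left out 162 control and 297 knockout cells.

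**Figure D1:**
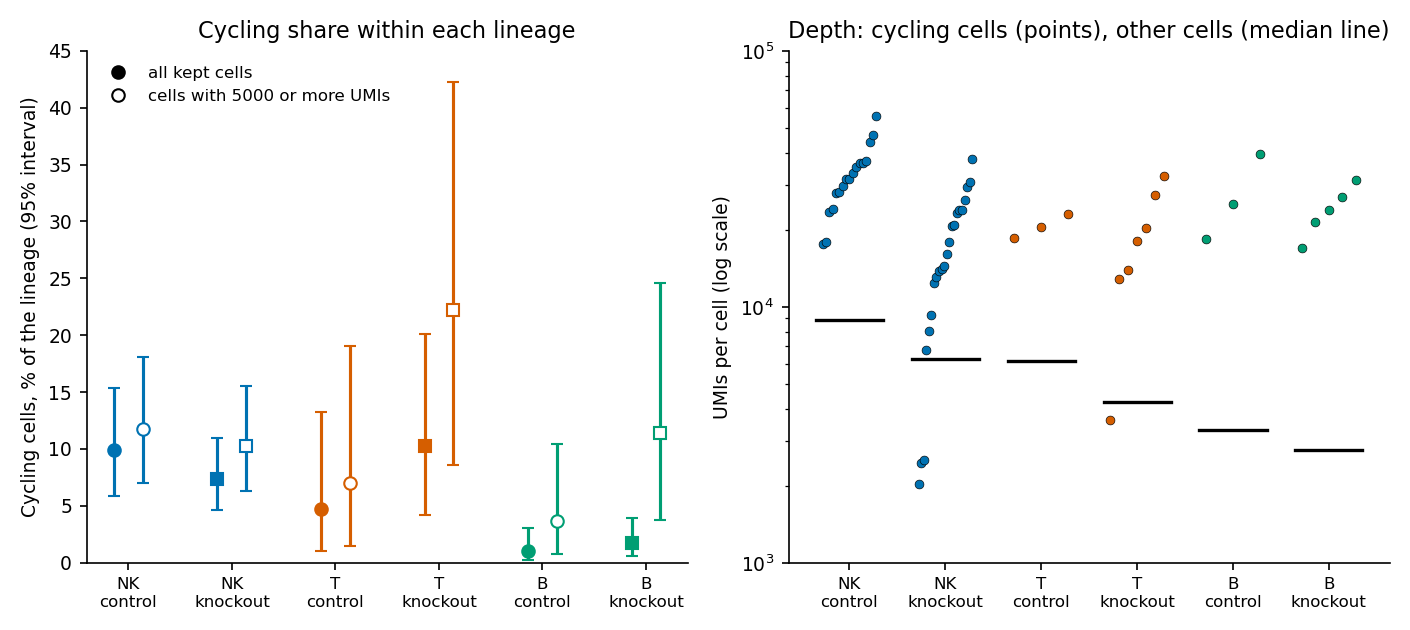
Left, percentage of NK, T and B lineage cells that were cycling in each library, with exact binomial 95% intervals, for all retained cells (filled points) and cells with at least 5000 UMIs (open points). Right, total UMIs of each cycling cell on a log axis, with the median of the other cells of its lineage as a line; nearly all cycling cells lie above it.

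The cells spread over the cycle, and their position was described by the summed UMIs of 43 S phase genes and 52 G2/M genes. S phase UMIs ranged from 4 to 295 per cell and G2/M UMIs from 11 to 725. G2/M genes exceeded S phase genes in 38 cells and S phase genes exceeded G2/M genes in 23, with an S phase share of 4.34 to 68.9% (median 40%). Top2a and Mki67 are themselves most abundant late in the cycle, and a cell in early S phase would often fail the rule.

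At the G2/M end, 13 cells had an S phase share under 20%, of which 8 were NK, 1 was T and 3 were B cells. Ccnb1, encoding cyclin B1, was detected in 12 of these 13 at 246 CPM over the group, Plk1 in 12 at 184 CPM, and Cdc20, the activator of the anaphase-promoting complex, in 11 at 196 CPM. Cyclin E2, encoded by Ccne2 and used at S phase entry, was detected in 1 of them at 2.92 CPM. At the other end were 10 cells with a share over 60%, 8 of them NK and 2 T cells. In these, Ccnb1 reached 32.7 CPM in 4 cells, Plk1 14 CPM in 3 and Cdc20 14 CPM in 3, while Ccne2 was found in 6 of the 10 at 46.7 CPM. Pcna, the sliding clamp of DNA polymerase, was at 313 CPM against 96.5 CPM at the G2/M end, and the helicase subunit Mcm5 at 187 against 58.5 CPM. Cdc20 was picked after its values were seen. Cdc20, Ccne2, Pcna and Mcm5 are members of the sums, while Plk1 and Ccnb1 are in neither sum.

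Single cells show the ends plainly. Control NK 12 held 40 S phase and 725 G2/M UMIs with 12 UMIs of Plk1 and 16 of Ccnb1, whereas control NK 10 held 210 and 95 and had the highest share, 68.9%. The lowest share, 4.34%, belonged to control NK 2 with 17 S phase and 375 G2/M UMIs. In the knockout library the highest share, 67.8%, belonged to knockout NK 8 with 59 S phase and 28 G2/M UMIs. The lowest, 8.16%, belonged to the shallowest cycling cell, knockout NK 1, with 4 S phase and 45 G2/M UMIs of 2023 in all. Among deeper cells knockout T 7 held 86 S phase and 456 G2/M UMIs.

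**Figure D2:**
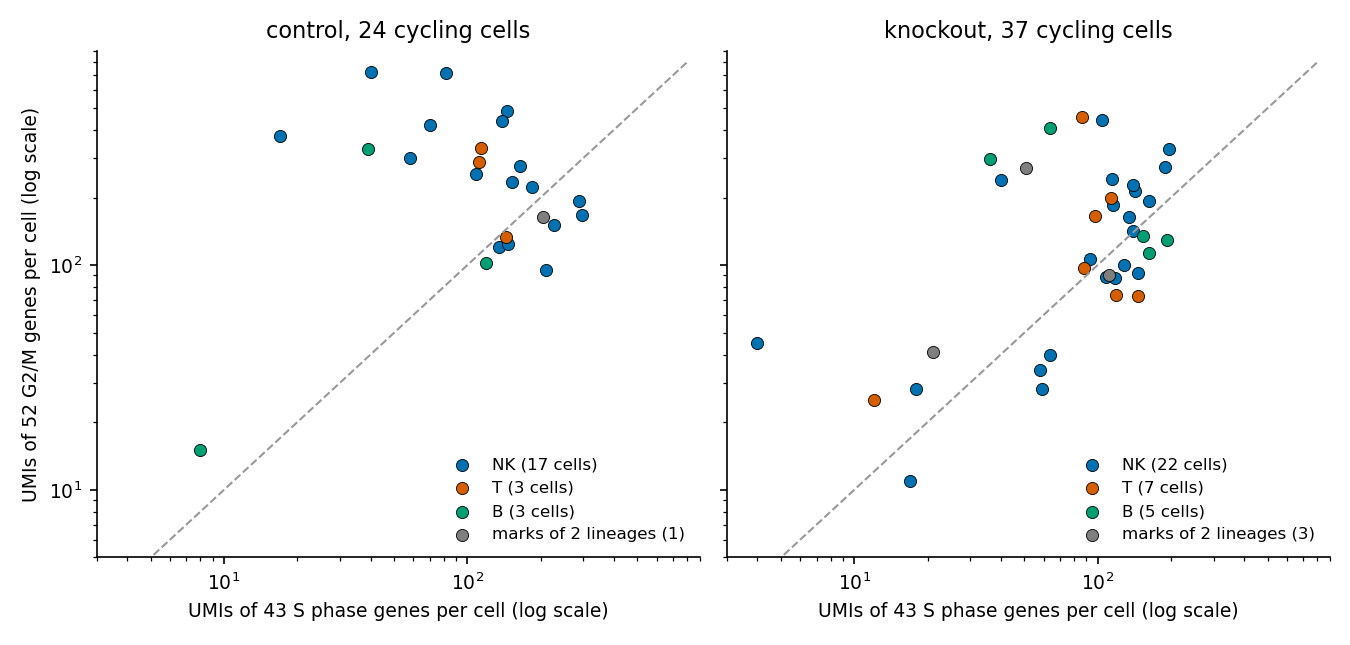
Summed UMIs of the 43 S phase genes (horizontal) against those of the 52 G2/M genes (vertical) in each cycling cell, both on log axes, for the control (left) and the knockout (right), coloured by lineage; the dashed line marks equal sums. Of the 61 cells, 38 lie on the G2/M side of the line and 23 on the S phase side.

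Pooled over cycling NK cells, S phase genes made up 31.7% (30.7 to 32.8%) of the S and G2/M UMIs in the control and 40.9% (39.6 to 42.2%) in the knockout. S phase genes stood at 4426 CPM (4253 to 4604) in control and 6211 CPM (5959 to 6470) in knockout cycling NK cells, and G2/M genes at 9533 CPM (9278 to 9793) and 8968 CPM (8665 to 9279). In other NK cells they were at 1706 and 1227 CPM for S phase and at 2093 and 1666 CPM for G2/M, so the S phase sum was lower in the knockout outside the cycling cells. Cell by cell, the median S phase share was 37.3% in 17 control cells and 45.4% in 22 knockout cells. S phase genes led in 6 control and 8 knockout cells. The shares of the cells overlapped widely, from 4.34 to 68.9% in the control and 8.16 to 67.8% in the knockout. With each cell thinned to 5000 UMIs the pooled shares were 28.9% and 44.9%. Cells are not replicates of a genotype, so the difference between the libraries was not tested.

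Cycling T cells had S phase shares of 32.9% in the control and 37.8% in the knockout, and cycling B cells 27.1% and 36.0%. S phase genes were at 5952 CPM in control and 5158 CPM in knockout cycling T cells, against 1629 and 1600 CPM in other T cells. G2/M genes were at 12130 and 8475 CPM, against 1632 and 1562 CPM. In cycling B cells S phase genes were at 1994 CPM (control) and 5055 CPM (knockout), and G2/M genes at 5370 and 8988 CPM, against 535 to 710 and 989 to 1280 CPM in other B cells. The low control B values came in part from control B 1, and without it the control sums were 2435 CPM for S phase and 6657 CPM for G2/M.

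NK cells were numerous enough to set cycling cells beside the other cells of their lineage. The rule chose the cycling cells by genes of the same RNA, so the comparison is a description. Genes with at least 50 UMIs over both groups were compared, and a ratio of CPM of 2 or more, or of 0.5 or less, was counted. In the control 254 of 5142 genes (4.94%) were higher in cycling NK cells and 268 (5.21%) lower. In the knockout 415 of 5435 (7.64%) were higher and 356 (6.55%) lower. Of 4954 genes measured in both, 165 were higher in both libraries, which is 77.1% of the 214 control genes and 43.2% of the 382 knockout genes higher among them, and 77 were lower in both (30.4% of 253 and 26.5% of 291). The median log2 ratio over all genes was -0.02 in the control and 0.02 in the knockout.

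Genes of DNA replication were high in cycling NK cells of both libraries. Of the measured S phase genes 23 of 33 were at least 2-fold higher in the control (median log2 ratio 1.18) and 27 of 30 in the knockout (2.16). Rrm2, the regulated subunit of ribonucleotide reductase, ranged over control cycling NK cells from 0 to 26 UMIs (median 13) and over knockout ones from 0 to 25 (median 10), while the median was 0 in other NK cells of both. Rrm2 thus stood at 435 against 23.9 CPM in the control, 18.2-fold, and at 637 against 7.99 CPM in the knockout, 79.7-fold. Tyms, thymidylate synthase, was 5.71-fold and 11.2-fold higher, and Pcna 2.19-fold and 5.86-fold. Of 10 measured nucleotide synthesis genes 8 were higher in each library.

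The MCM and licensing genes were less separated in the control. Here 5 of 10 were at least 2-fold higher (median log2 0.97), against 9 of 9 in the knockout (2.03). Mcm5 was at 122 CPM in cycling and 74.9 CPM in other control NK cells, a ratio of 1.63, and at 241 and 50.6 CPM in the knockout, a ratio of 4.76. Cohesin and condensin genes, which hold and fold chromosomes, were higher in 4 of 10 (0.82) and 8 of 11 (1.40). Among them were the condensin subunits Smc2 (5.51-fold and 7.71-fold) and Smc4 (5.71-fold and 4.66-fold). The difference between the libraries in these ratios was not tested.

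Genes of the histone clusters were far above the other NK cells, with 9 of 9 measured at least 2-fold higher in the control (median log2 4.70) and 8 of 8 in the knockout (5.26). With the variant histones H2afz and H2afx, which are also on the list, the counts were 10 of 11 (4.47) and 10 of 10 (4.05). Hist1h1b, a linker histone, had a median of 11 UMIs per cycling control NK cell (0 to 56) and 6 per knockout cell (0 to 66), against 0 in other NK cells. This placed it at 525 against 7.64 CPM in the control and at 758 against 6.21 CPM in the knockout, ratios of 68.6 and 122. The core histone gene Hist1h2ae was 59.2-fold and 51.7-fold higher. Histone genes are near-identical copies, so the assignment of reads among them is uncertain.

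Mitotic genes were also high in both libraries. Without Top2a and Mki67, which chose the cells, 29 of 33 measured G2/M genes were at least 2-fold higher in the control (median log2 2.51) and 27 of 29 in the knockout (2.76). All measured mitotic kinase and checkpoint genes were higher (7 of 7 and 4 of 4), as were the kinesins (4 of 4 and 3 of 3). Ube2c, the ubiquitin-conjugating enzyme that works with the anaphase-promoting complex, was 17.5-fold and 10.9-fold higher, Birc5, the survivin subunit of the chromosomal passenger complex, 7.79-fold and 13.3-fold, and Hmgb2, a chromatin protein, 4.34-fold and 6.79-fold. Ccna2, encoding cyclin A2, was found in 16 of 17 control and 16 of 22 knockout cycling NK cells and was 18.7-fold and 70.2-fold higher. Kif11, the motor that separates spindle poles, was 30.2-fold and 44.7-fold higher.

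Not all cyclins moved this way. Ccnd2, encoding cyclin D2, which acts before S phase, was at 88.0 CPM in cycling and 139 CPM in other control NK cells, and at 65.0 and 171 CPM in the knockout. Its ratio was 0.635 in the control and 0.38 in the knockout, past the 2-fold limit in the latter only. CDK inhibitor and quiescence genes were split, with 3 of 7 higher and 2 lower in the control and 2 of 8 each way in the knockout. Cdkn2c and Cdkn2d, which inhibit Cdk4 and Cdk6, were 2.9-fold and 2.11-fold higher in the control and 2.14-fold and 1.72-fold in the knockout. Klf2, a transcription factor of resting lymphocytes, was at 16.2 against 102 CPM in the control and 21.7 against 101 CPM in the knockout, and the antiproliferative gene Btg1 was at a ratio of 0.37 and 0.405. Cell cycle groups were therefore not uniform in direction.

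Genes of NK effector function differed among themselves. Of 12 measured, 4 were at least 2-fold lower in cycling cells of the control (median log2 ratio -0.15) and 9 in those of the knockout (-1.13). Ccl5, an attractant chemokine, was detected in 1 of 17 cycling control NK cells, at 72 UMIs, and in 91 of 155 others. In the knockout it was found in 4 of 22 cycling NK cells and 157 of 277 others. Cycling NK cells, although deeper, thus had 129 against 2581 CPM in the control (ratio 0.0501) and 184 against 3046 CPM in the knockout (0.0605). In other B cells, which should lack it, 5 of 278 control and 5 of 285 knockout cells held Ccl5 at median depths of 3286 and 2755 UMIs.

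Gzma, encoding the protease granzyme A, was detected in 9 of 17 cycling and 129 of 155 other control NK cells, and in 14 of 22 and 224 of 277 knockout cells. Its UMIs per cycling cell ranged from 0 to 164 (median 1) in the control and from 0 to 268 (median 4) in the knockout, against medians of 39 and 25 in other NK cells. The CPM ratios were 0.255 and 0.477. Ccl4, another chemokine, was at ratios of 0.0357 and 0.112, the second resting on 11 UMIs in 1 knockout cell. Klrb1c was at 55.7 against 255 CPM and 78.5 against 330 CPM. It was 1 of the 2 genes that chose the lineage, and the rule acts unlike on shallow and deep cells, so these values are a description only.

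Other effector genes were less far apart or differed between the libraries. In the knockout all 12 were below a ratio of 1, against 7 of 12 in the control. Gzmc, encoding granzyme C, was the most abundant granzyme, at 20668 CPM in cycling and 19259 CPM in other control NK cells and at 16503 and 18109 CPM in the knockout, ratios of 1.07 and 0.911. Gzmb, encoding granzyme B, was at ratios of 0.726 and 0.489, past the 2-fold limit in the knockout. The chemokine gene Xcl1 was at a ratio of 1.68 in the control and 0.884 in the knockout. Gzmd stood at 1.25 and 0.509. In the knockout the granzyme genes Gzmf and Gzmg were at 0.257 and 0.148, but 2321 of the 2821 Gzmf UMIs of other NK cells were in 1 cell, as were 747 of 1817 for Gzmg. Eomes, the transcription factor of the NK lineage, was at 0.872 and 0.833. The granzyme genes Gzmb to Gzmg are close relatives in 1 gene cluster, and reads may be split among them.

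Interferon response genes were mostly lower in cycling NK cells. Of 9 measured, 4 were at least 2-fold lower in the control (median log2 ratio -0.99) and 6 in the knockout (-1.48). Isg15, a ubiquitin-like antiviral protein, was at 180 against 314 CPM in the control and 89.4 against 265 CPM in the knockout, and Irf7, a transcription factor of this response, at ratios of 0.513 and 0.359. Ifit3 was at 0.0592 and 0.235. Glycolysis genes stayed under the 2-fold limit in both libraries, yet all 9 measured were above 1 in the control, as were 7 of 9 in the knockout. Ldha, lactate dehydrogenase A, was 1.47-fold and 1.38-fold higher and Gapdh 1.42-fold and 1.26-fold. No oxidative phosphorylation gene passed 2-fold, with medians of 0.11 and 0.19.

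**Figure D3:**
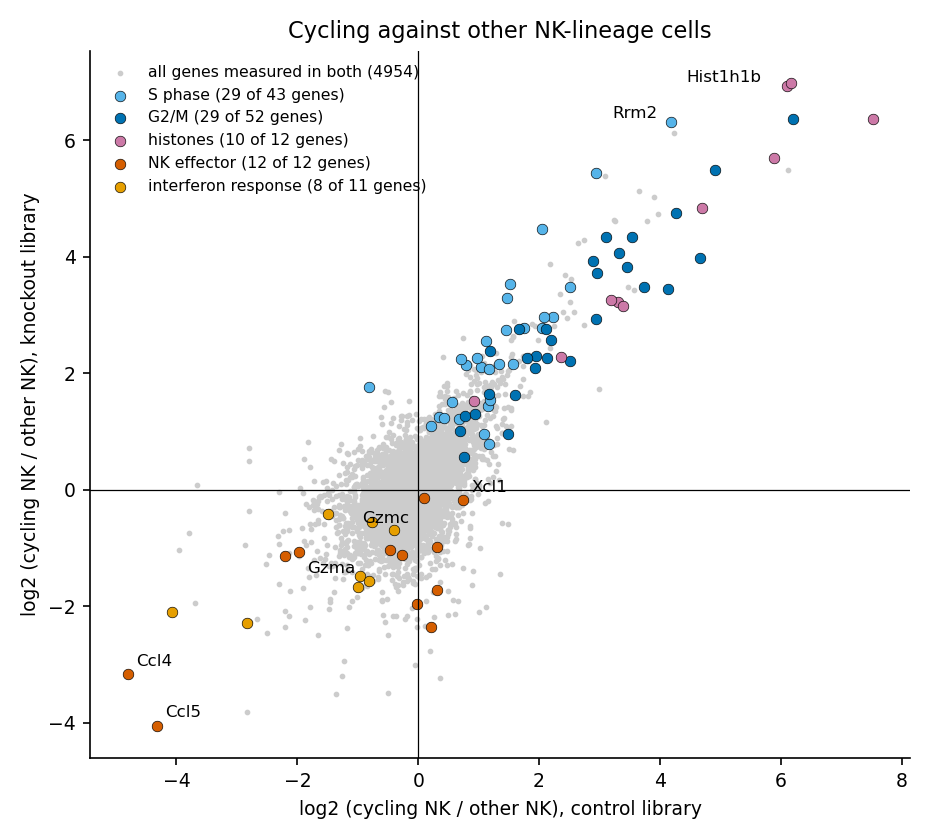
Log2 ratio of CPM in cycling over other NK cells in the control (horizontal) and the knockout (vertical) for the 4954 genes measured in both libraries (grey), with S phase, G2/M, histone, NK effector and interferon genes coloured. Cell cycle genes lie at the upper right, and Ccl5, Ccl4 and Gzma at the lower left, while Gzmc lies near 0 on both axes.

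Between the genotypes, cycling NK cells could be compared for 2543 genes with at least 50 UMIs, of which 53 (2.08%) were at least 2-fold higher in the knockout and 37 (1.45%) lower. In other NK cells 28 of 6660 (0.42%) were higher and 33 (0.495%) lower. Both comparisons had a median log2 ratio of 0.03. The smaller number of cycling cells, 17 and 22, means that 1 cell can set a ratio.

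Replication genes leaned upward in cycling NK cells of the knockout and downward in its other NK cells. Of 28 measured S phase genes 27 were above a ratio of 1 in cycling cells (median log2 0.44), although 1 reached 2-fold, whereas 2 of 30 were above 1 in other NK cells (-0.50) and 5 were at least 2-fold lower. MCM and licensing genes were above 1 in 9 of 9 (0.41) in cycling cells and in 1 of 9 in the others (-0.60). Mcm5 was 1.97-fold higher (1.42 to 2.75) in knockout cycling cells and at a ratio of 0.676 (0.524 to 0.869) in the others. Rrm2 was at 1.46 and 0.334, and Pcna at 1.62 and 0.603. These are the ratios behind the larger separation of cycling from other NK cells in the knockout. Knockout cycling NK cells had a median depth of 15186 UMIs against 31510 in the control, and the part of depth and cell choice in this was not tested.

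G2/M genes other than Top2a and Mki67 had a median log2 ratio of 0.02 over 36 genes in cycling NK cells and of -0.28 over 21 in the others. Within the group Ube2c was lower in knockout cycling cells, at 252 against 614 CPM (ratio 0.41, 0.322 to 0.517), while Birc5 and Hmgb2 were at ratios of 1.01 and 1.04. Outside this list, Ccnb1 was at 62.3 against 113 CPM (0.551, 0.326 to 0.9). Kpna2, an importin of the nuclear pore pathway and also not on the list, was at 0.307. The histone list had a median log2 ratio of 0.00.

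The genes furthest apart between the genotypes in cycling NK cells were not cell cycle genes for the most part. The highest UMI count of Xcl1 in any control cycling NK cell was 406 and the median 97, with 16 of 17 cells positive. In the knockout the highest was 77 and the median 14.5, with 17 of 22 positive. Xcl1 was thus at 3991 against 1417 CPM, a ratio of 0.355 (0.322 to 0.391), and in other NK cells at 0.673. By raw UMIs, which are not scaled for depth, the knockout cells thus lay within the lower range of the control cells. Median depth was 31510 UMIs in control and 15186 in knockout cycling NK cells. In the control, 1 cell carried 18.3% of the Xcl1 UMIs of its group. The B cells, which should lack Xcl1, held it in 0 of 278 other control cells and 6 of 285 knockout cells.

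Ifitm3 and Ifitm2, interferon-induced membrane proteins, were also lower. Ifitm3 was found in 9 of 17 control cycling NK cells at up to 71 UMIs and in 6 of 22 knockout cells at up to 5, or 451 against 35.2 CPM (ratio 0.0781). Ifitm2 was at 850 against 203 CPM (0.239). The same genes were at 0.392 and 0.521 in other NK cells. The 5 measured genes of the interferon response list, which does not hold them, were all below 1 (median log2 -0.26).

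Gzma was higher in the knockout, at 2476 against 1076 CPM (ratio 2.30, 2.07 to 2.55), and at 1.23 in other NK cells. Gzma UMIs were unevenly spread, and the median cell held 1 UMI in the control and 4 in the knockout. Cdkn1a, encoding the CDK inhibitor p21, was at 122 against 35.9 CPM (3.39) and was found in 9 cells of each group, with 20 of its 45 knockout UMIs in 1 cell. In other NK cells Cdkn1a was at 38.2 against 16.8 CPM (2.27), so it was above 2-fold in both. Klrc1, which encodes the inhibitory receptor NKG2A, was at 2.13, the condensin subunit Ncapg2 at 3.39 and the nuclear RNA Malat1 at 2.03. In other NK cells Klrc1 was at 251 CPM in the knockout against 206 CPM in the control. There Malat1 was at 1913 against 1266 CPM, while Ncapg2 was lower, at 3.99 against 7.13 CPM. Jund, a subunit of the AP-1 transcription factor, was present in 17 of 17 control and 21 of 22 knockout cycling NK cells and was at 814 against 325 CPM (0.399), while other NK cells were at 1.09.

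Some ratios rested on a single cell. The chemokine gene Ccl1 had 250 UMIs in control and 2 in knockout cycling NK cells (ratio 0.0121), but 230 of the 250 were in 1 control cell, and leaving out each library's top cell the control was at 38.5 CPM and the knockout at 0. Ly6c2, a surface protein of activated lymphocytes and monocytes, was at 5.21 with UMIs in 4 control and 5 knockout cells. Leaving out those with most UMIs it was at 5.09. In other NK cells Ly6c2 leaned the other way, at 186 CPM in the knockout against 222 CPM in the control. Of the 12 NK effector genes 9 were measured in cycling cells, 1 of them at least 2-fold higher and 3 lower (median log2 -0.41), and 12 in the others (0.19).

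The 61 cycling cells of all lineages differed between the genotypes in 115 of 3642 genes at least 2-fold higher (3.16%) and 65 lower (1.78%), around an overall median of 0.10 on the log2 scale. Many of the leading genes were B lineage genes. The MHC class II gene H2-Aa was 28.5-fold higher in the knockout and its invariant chain Cd74 5.37-fold higher, while the plasma cell genes Mzb1 and Derl3, which help proteins fold in and leave the endoplasmic reticulum, were at 0.129 and 0.0224. Of the 282 knockout UMIs of H2-Aa 279 were in cycling B cells, as were all 871 control UMIs of Mzb1 and 98 of the 99 of Derl3. Fos was at 0.234, but 146 of its 166 control UMIs were in 1 cycling B cell, and leaving out each library's top cell the ratio became 1.31.

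The 10 cycling T cells were mainly CD8 cells. Cd8a, a chain of the CD8 co-receptor, had 5, 64 and 26 UMIs in the 3 control cells and 14, 21, 0, 35, 17, 37 and 34 in the 7 knockout cells, so 9 of 10 held it. Its partner Cd8b1 had 21, 17 and 18 UMIs in the control and 6, 15, 0, 8, 0, 9 and 12 in the knockout. Cd4, Foxp3 and the gamma delta T cell genes Trdc and Tcrg-C1 were at 0 in all 10. In other T cells Cd8a was found in 24 of 60 control and 17 of 61 knockout cells, at a lower depth. Over the group it was at 1528 CPM in cycling and 1123 CPM in other control T cells, and at 1227 and 585 CPM in the knockout.

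Activation genes varied among them. Pdcd1, encoding the inhibitory receptor PD-1, had 15, 8 and 10 UMIs in the control cells and 7, 0, 0, 10, 23, 14 and 23 in the knockout cells. Ctla4, another inhibitory receptor, had 2, 5 and 1 UMIs in the control and 0 in all 7 knockout cells. Other inhibitory and homing genes were chosen after their values were seen. Lag3 had 5, 15 and 13 UMIs in the control and 8, 0, 0, 4, 1, 16 and 8 in the knockout. Ly6c2 reached 88 to 95 UMIs in 3 knockout T cells, of which 2 were those without Pdcd1 or Lag3. With 3 cells in the control no difference between genotypes could be read from these counts.

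Among the double-marked cells, the control NK and T cell held 28 UMIs of Cd3e, 16 of Cd8a, 97 of Gzmb and 1 of Klrb1c. The first knockout NK and T cell held 5 UMIs of Cd3e, 3 of Klrb1c and 181 of Gzmc but no Cd8a, at 4149 UMIs in all, and the other held 6 UMIs of Cd3e, 4 of Cd8a and 1 of Klrb1c. The T and macrophage cell held 35 UMIs of Cd3e, 11 of Cd8a and a single UMI of C1qa. The mark other than Cd3e was thus at most 3 UMIs in each, and none held Ncr1. The doublet caller, Scrublet, marked 0 of the 61 cycling cells, but only 1 of 816 control and 5 of 897 knockout barcodes in all. With so few calls it cannot tell whether the double-marked cells were doublets.

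The 8 cycling B lineage cells were of different kinds in the 2 libraries. A heavy chain was joined to all 8 and to 0 of the other 53 cycling cells, so the receptor libraries named the same cells as Cd79a did. Among other B cells it was joined to 46.0% in the control (128 of 278) and 95.4% in the knockout (272 of 285). The heavy chain CDR3 is shown for each cell, because it is the stretch joined anew in each B cell clone and so shows which cells are kin. The sequences are from the deposited receptor contigs, 5′ to 3′, and capitals mark the first and last codons, for the conserved cysteine and tryptophan.
Control B 1, IgA, IGHV14-2: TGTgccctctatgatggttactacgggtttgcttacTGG
Control B 2, IgA, IGHV9-3: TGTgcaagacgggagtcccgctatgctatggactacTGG
Control B 3, IgA, IGHV1-64: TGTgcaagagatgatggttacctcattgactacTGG
Knockout B 1 and B 3, IgA, IGHV1-26: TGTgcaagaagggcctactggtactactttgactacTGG
Knockout B 2, IgM, IGHV1-53: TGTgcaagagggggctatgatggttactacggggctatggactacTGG
Knockout B 4, IgM, IGHV1-80: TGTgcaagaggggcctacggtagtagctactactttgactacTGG
Knockout B 5, IgG2b, IGHV1-81: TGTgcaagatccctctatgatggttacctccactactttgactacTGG

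The 3 control cells were IgA cells with plasma cell transcripts. Jchain, which links antibody into polymers, had 832, 593 and 702 UMIs in control B 1, B 2 and B 3, and Mzb1 175, 153 and 543. Xbp1, the transcription factor of the secretory programme, had 37, 105 and 26 UMIs, and Tnfrsf17, the survival receptor BCMA, 24, 8 and 1. Sdc1, encoding CD138, had 4, 1 and 12 UMIs, and Irf4, a transcription factor of plasma cells, 12, 2 and 6. The mature B cell genes Ms4a1 and Pax5 were at 0 in all 3. They carried 1, 1 and 0 base differences from the V segment sequence most frequent among unswitched cells of the series, and their 3 CDR3s differ. The other control IgA cells were further from it, with a median of 9 differences (0 to 37) over the 28 that could be compared, of which 3 had 0. Among control B cells with at least 100 UMIs of Jchain 3 of 44 were cycling (6.82%, 1.43 to 18.7%) and among those below 0 of 237, at median depths of 20699 and 3055 UMIs. In the knockout all 290 B cells, cycling or not, were below 100 UMIs of Jchain, at no more than 80. This difference between the libraries was therefore not particular to the cycling cells. Control B 1 is the cell whose S and G2/M sums were low.

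Of the knockout cells, B 1 and B 3 shared 1 receptor. Their heavy chains were identical over 355 bases and their light chains, with IGKV3-7, over 334 bases. The light chain CDR3, with capitals as before but ending in the phenylalanine codon, was the same in both.
Knockout B 1 and B 3, light chain: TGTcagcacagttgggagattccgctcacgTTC

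Each had 3 differences from the V segment over 285 bases, where the reference sequence was that of 11 IgM or IgD cells. The clone had 2 members, both cycling, and its CDR3 was in 0 cells of the other library. It was 1 of 11 knockout clones of at least 2 cells (38 cells in all, the largest of 14), and the only one with a cycling member. The control had 1 such clone, of 3 cells, with 0 cycling.

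These 2 sister cells carried germinal centre transcripts. Mef2b, a transcription factor of germinal centre B cells, had 16 and 21 UMIs, and Gcsam 3 and 10. S1pr2, the receptor that keeps cells in the germinal centre, had 2 and 4 UMIs, Neil1, a DNA glycosylase, 9 and 10, and Basp1 7 and 22. Bcl6, the master regulator of the germinal centre, had 0 and 1 UMI, and Fas 1 and 3, so the list was not uniformly high. Both held Jchain at 48 and 66 UMIs, between the control plasma cell values and the 0 of knockout B 2, B 4 and B 5.

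The other 3 knockout cells had no Jchain UMI, 0 differences from their V segments, and 3 unlike CDR3s. Knockout B 2 and B 4 were IgM and B 5 IgG2b by their contigs, although B 2 also held 22 UMIs of Ighg2b beside 63 of Ighm, B 4 30 beside 7, and B 5 26 UMIs of Igha beside 19 of Ighg2b. Antibody RNA of a second class was therefore present in all 3, and its source was not tested. Plac8 had 119, 22 and 149 UMIs in B 2, B 4 and B 5, and Ccr7, the lymph node homing receptor, 5, 20 and 1. The naive and mature B cell genes Fcer2a, Cr2 and Ighd were at 0.

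MHC class II genes present antigen to helper T cells and are shut down in plasma cells. For 5 of the 11 listed genes (H2-Aa, H2-Eb1, H2-DMa, H2-DMb2 and the invariant chain gene Cd74) each of the 5 knockout cells held more UMIs than any of the 3 control cells. The groups overlapped for the other 6, among them H2-Ab1, with 4, 11 and 5 UMIs in the control cells and 15, 65, 35, 10 and 90 in the knockout cells. The share of all genes that separate these few cells in the same way was not computed. The count of 5 therefore has no background to be judged by, and it is a description of these cells only. H2-Aa had 0, 2 and 4 UMIs in the control cells and 18, 90, 49, 11 and 111 in the knockout cells. H2-Eb1 had 2, 4 and 0 UMIs in the control cells and 29, 78, 42, 8 and 68 in the knockout cells. Cd74 had 57, 44 and 103 against 123, 283, 228, 138 and 439. Heavy chain UMIs in the receptor library ran the other way, at 1916, 2938 and 3461 in the control and 25, 167, 153, 32 and 156 in the knockout. Reads of the same contigs did not, at 4885, 10942 and 11480 in the control and 4190, 29414, 14653, 9529 and 42461 in the knockout. The 2 receptor libraries thus differed in reads per UMI, and the part of this in the UMI counts was not tested.

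**Figure D4:**
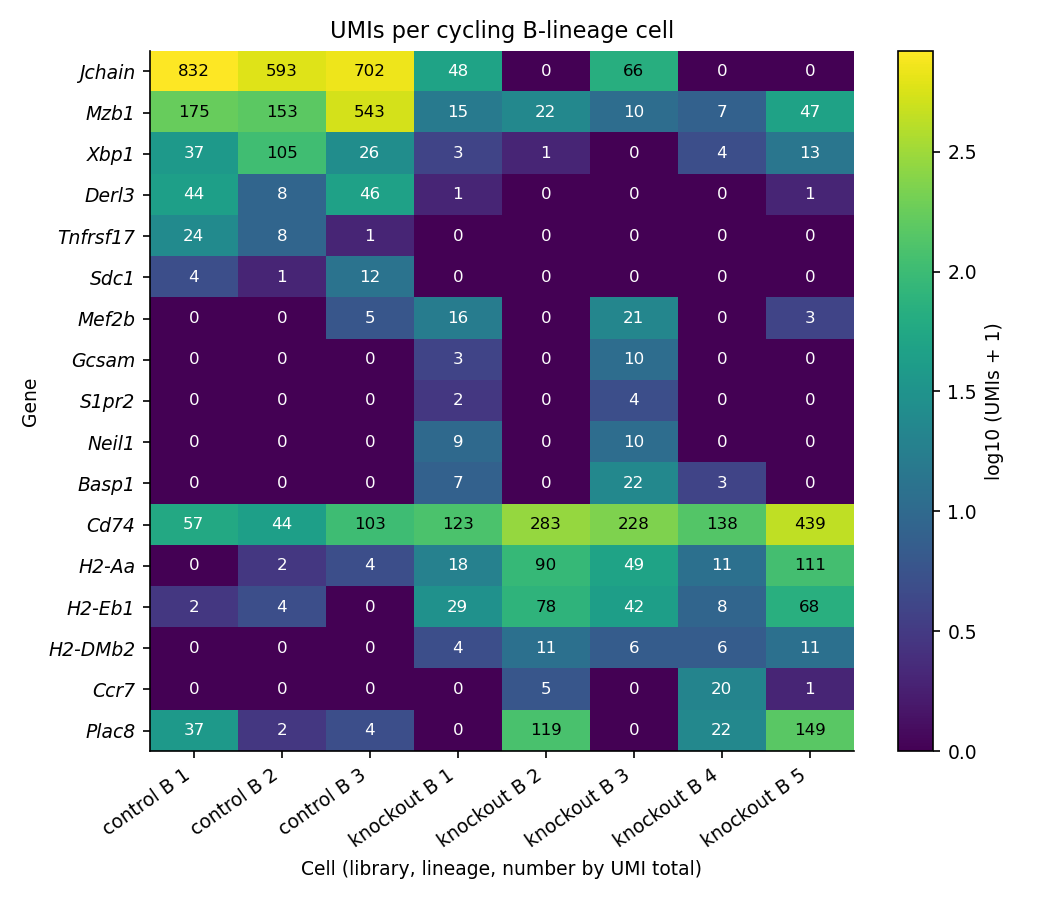
UMIs of 17 genes in each of the 8 cycling B lineage cells, control B 1 to 3 and knockout B 1 to 5, as a heat map. Jchain and Mzb1 are high in the control cells, Mef2b and Basp1 in knockout B 1 and B 3, and H2-Aa and Cd74 in the knockout cells.

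Prdm1 itself had 1 UMI in control B 1, 1 in knockout B 2 and 0 in the other 6. Reads from the 5′ end need not cover a deleted exon and the labels do not say which exons are floxed, so these counts check nothing about the deletion. Among other cells with a heavy chain, 28.8% were IgA in the control (38 of 132) and 46.2% IgM, while in the knockout 84.5% were IgM (246 of 291) and 3.44% IgA (10 cells). Against this background 3 of 3 cycling control B cells and 2 of 5 knockout cells were IgA, the latter being 1 clone.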

How the data were processed

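Gene expression was read from the 5′ end of transcripts in single cells, with 1 library per genotype, and B cell receptors from the same cells. The deposited values were raw UMI counts per gene and cell, which the authors made with Cell Ranger 6.0.0 against GRCm38/mm10, per the submitters' processing notes. The receptor tables gave contigs with their UMI counts, deposited by the authors. The 2 libraries held 816 and 897 barcodes with 6976374 and 5463434 UMIs, and the limits of 200 genes and 10% mitochondrial UMIs removed 11 and 23 of them. Libraries shared 3 barcodes.

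Counts of a group of cells were summed and divided by its total to give CPM. Ratios were computed where the groups held at least 50 UMIs of the gene, with exact conditional binomial intervals. CPM have exact Poisson and shares exact Clopper-Pearson intervals. A count of 0 was set to 3 for a bound. With 1 library per genotype no test was run. Python 3.11.15, NumPy 2.4.6, SciPy 1.17.1 and pandas 2.3.3 were used, and the interval script was tested on simulated data. Scrublet in Scanpy 1.11.5 marked 1 of 816 and 5 of 897 barcodes as doublets, none of them cycling. Heavy chains were joined by barcode, and a clone was a shared V gene, J gene and CDR3.

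The members and gene lists were chosen with earlier results of these data known. Named were the 6 markers, the 6 most abundant members of each list (all where a list has fewer than 12), the 10 genes higher and 10 lower by the interval bound nearest 1 in each comparison, and every isotype and repeated clone of a cycling cell. Alternatives were other marker minimums, UMI limits, depths after thinning, equal weight per cell and leaving out the top cell.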

Additional observations from a re-analysis of the deposited data

Results flagged for a closer look

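In 3 genes cycling NK cells stood above the other NK cells in the control and below them in the knockout, with counting intervals that excluded 1 on both sides. Cd3d, a subunit of the T cell receptor complex that NK cells can also carry, was at a ratio of 2.01 (1.38 to 2.89) in the control and 0.235 (0.0277 to 0.891) in the knockout. Of its 49 UMIs in control cycling NK cells 32 were in 1 cell, and the knockout cells held 2. Leaving out each group's top cell, the control stood at 32.4 against 33.5 CPM (0.966), so the opposite direction was no longer there. Klra5, an Ly49 family receptor gene, was at 2.18 (1.2 to 3.86) and 0.247 (0.0499 to 0.752), from 21 and 3 UMIs. Here 17 of the 21 were in 1 cell, and leaving out each group's top cell the control ratio was 1.08. Pxdc1 was at 2.54 (1.69 to 3.81) and 0.368 (0.116 to 0.893), from 44 and 5 UMIs, and at 2.66 and 0.18 leaving out each group's top cell. The difference between the genotypes was not tested over the 4954 genes compared. These genes were picked after their values were seen.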

How the results depend on the processing

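No paired analysis was possible because each genotype had 1 library. Of the summary values recomputed under other settings, 142 moved by less than their interval (or, for counts, under 1.5 times) and 38 by more. Requiring at least 5000 UMIs per cell raised the cycling share from 2.98% to 5.18% in the control and from 4.23% to 9.01% in the knockout, and gave 3.70% for control B, 22.2% for knockout T and 11.4% for knockout B cells. Knockout genes lower in cycling NK cells then numbered 236. After thinning to 1500 UMIs, with 1 UMI of each marker, the control shares were 0.381% (all), 1.16% (NK) and 0% (B) and the knockout shares 1.45%, 2.86% and 0.356%. Thinning to 3000 UMIs gave 1.56% in the control. Depth thus limits every share given.

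With equal weight per cell the S phase share of NK cells was 30.1% and 42.5%, and thinned to 5000 UMIs 28.9% and 44.9%. Equal weight also gave 314 genes higher over all cycling cells, 185 higher and 60 lower between genotypes in cycling NK cells, and 451 (control) and 592 (knockout) genes lower in cycling than other NK cells. A minimum of 20 UMIs per gene gave 399 higher and 176 lower over all cycling cells, 300 and 147 in cycling NK cells, and 521 and 672 (control) and 792 and 700 (knockout) for cycling over other NK cells. A minimum of 100 UMIs gave 28 higher over all cycling cells, 11 and 18 in cycling NK cells, 133 and 103 in the control and 203 and 157 in the knockout. At 1 UMI of each marker 5 control cycling cells had a heavy chain. Of named genes, 556 values stayed on their side of the 2-fold limit. Gzma fell to 1.94 at 3 UMIs of each marker and 1.61 at equal weight, and Malat1 to 1.87 at 5000 UMIs. Fos turned to 1.31 without the top cells. The limit of 5000 UMIs per cell, leaving out top cells, and the lists without Top2a and Mki67 or without the variant histones were chosen after seeing the data.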
